A study of Mus musculus with 8 samples.

Results

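The mucins, trefoil factors and mesothelin of the ocular surface were followed in naive corneas of 2 mouse strains, BALB/cN and C57BL/6N. The 10 genes were chosen by name, out of 54532 genes in the deposited table, but with earlier results of these data known. They comprise the membrane-bound mucins Muc1, Muc4, Muc15, Muc16 and Muc20, the gel-forming mucins Muc5ac and Muc5b, the trefoil factors Tff1 and Tff2, and mesothelin (Msln). Total RNA was sequenced from 4 corneas of each strain, and the labels call the tissue naive and name no treatment or transgene. The strain labelled Balb/c is called BALB/cN here, after the study. Only males were sequenced. Parental mice phenotyped in the same work were 8 to 10 weeks old, although this age is not tied to the sequenced ones. Both inbred strains were compared in a study that searched for genes behind strain differences in corneal lymphatic vessels. Nothing states whether the 4 corneas of a strain came from separate mice, so p-values measure only the spread between these corneas, which may in part be technical. A whole cornea holds several cell types, and in such bulk samples fewer cells of a type and less RNA per cell cannot be told apart.

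Mucins are very large glycoproteins whose serine- and threonine-rich stretches carry dense O-linked sugar chains. Membrane-bound mucins stand on the outermost epithelial cells of cornea and conjunctiva, where they form the glycocalyx that holds the tear film and keeps pathogens off the cell. Gel-forming mucins are secreted. At the ocular surface Muc5ac is the classical product of conjunctival goblet cells, and trefoil factors are small secreted peptides that accompany gel-forming mucins and help epithelia to heal. Mesothelin is a GPI-anchored protein of mesothelial cells that binds the mucin Muc16.

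Muc4 is found on chromosome 16 (plus strand) from 32735886 to 32782391 (GRCm38), and Muc20 on the minus strand from 32777419 to 32797435. The pair is transcribed towards each other, and their exons overlap by 627 bp on opposite strands. The libraries were strand-specific, but the strand setting of the counting is not given in the sources used here, so reads in this overlap could count for either gene. Muc4 has 11757 bp of exon and Muc20 has 4027 bp, and BALB/cN replicate 1 held 608940 Muc4 reads against 13368 of Muc20. Muc4 reads from the overlap could thus make up much of the Muc20 count, and their share was not tested. Muc5ac and Muc5b are neighbours on the plus strand of chromosome 7, from 141788972 to 141819231 and from 141839070 to 141873084. Tff2 and Tff1 lie next to each other on chromosome 17 (minus strand), from 31141049 to 31144282 and from 31161395 to 31165277. Msln is on the same strand of that chromosome, from 25748613 to 25754378. Muc1 lies on chromosome 3 from 89229057 to 89233381 on the plus strand, Muc15 on chromosome 2 from 110721340 to 110739527 on the plus strand, and Muc16 on chromosome 9 from 18495455 to 18674530 on the minus strand.

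The promoters of Muc4 and Muc20 are shown because both genes differed between the strains in the same direction. Each sequence is the 250 bases before the RefSeq start of the gene (GRCm38.p6), and capitals mark matches on either strand. Searched were TATAAA, the TATA box, and CACCC (on the other strand GGGTG), a core that Krüppel-like factors such as Klf4 recognise. Also searched were CCAAT, held by 33.8% of all promoter windows, AACCGG, held by 5.62%, and TTCNNNGAA, held by 7.02%, none of which had a match in either window.
Muc4 promoter, chr16:32735636-32735885, plus strand: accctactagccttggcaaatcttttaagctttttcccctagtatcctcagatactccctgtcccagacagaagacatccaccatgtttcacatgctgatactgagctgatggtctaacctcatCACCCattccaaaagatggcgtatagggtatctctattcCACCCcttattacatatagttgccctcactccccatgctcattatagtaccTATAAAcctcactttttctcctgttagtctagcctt
Muc20 promoter, chr16:32797436-32797685, minus strand: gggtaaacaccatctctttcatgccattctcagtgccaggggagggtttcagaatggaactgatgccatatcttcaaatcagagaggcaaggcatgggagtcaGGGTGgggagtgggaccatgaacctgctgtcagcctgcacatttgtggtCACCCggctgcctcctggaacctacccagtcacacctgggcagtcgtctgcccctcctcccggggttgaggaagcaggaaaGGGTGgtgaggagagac
The Muc4 window holds TATAAA at 36 to 31 bases before the start and CACCC at 2 positions. The Muc20 window holds CACCC at 3 positions and no TATAAA. Among 32851 promoter windows of this length, 12.4% hold TATAAA and 52.0% hold CACCC. The GC content was 43.6% for Muc4 and 57.2% for Muc20. These matches describe the letters only. RefSeq promoter windows were found here for Muc1, Muc4, Muc16 and Muc20.

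Mucin genes are also hard to count, because their coding sequence repeats itself. In Muc5ac, 20.2% of all windows of 100 bases in the coding sequence occur more than once in the same transcript, against 16.7% in Muc5b, 2.50% in Muc4, 0.466% in Muc16 and 0% in the other members. No such window was shared with another gene, so a read that maps to several copies still belongs to the gene. The repeat of Muc5ac is shown by 2 neighbouring copies of 96 bases, positions 5989 to 6180 of the coding sequence of transcript ENSMUST00000155534.8, with capitals at the 5 bases that differ between them.
Muc5ac repeat, first copy: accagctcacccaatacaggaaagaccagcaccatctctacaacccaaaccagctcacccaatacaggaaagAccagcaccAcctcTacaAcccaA
Muc5ac repeat, second copy: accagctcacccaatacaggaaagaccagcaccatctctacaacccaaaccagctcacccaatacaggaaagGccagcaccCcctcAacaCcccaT
Whether reads that map to several copies were kept by the authors is not given in the sources used here.

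The deposited values are regularized log (rlog) values on a log2 scale, which draw weakly expressed genes towards their mean and so understate their fold change. Reads per cornea were therefore recovered by inverting this transformation, and counts above 1000 reads are not exact to the read. Recovered totals ranged from 36.7 to 41.2 M reads in BALB/cN and from 29.7 to 37.0 M in C57BL/6N corneas. A count of 0 in a cornea allows up to 3 reads, that is 0.0729 to 0.101 RPM (reads per 1000000 recovered reads of the cornea). Intervals and limits of this kind cover counting error only, since PCR copies of 1 molecule are counted as separate reads.

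Some corneas stood apart in their tissue makeup. Genes of stromal keratocytes summed to 2932 RPM in BALB/cN replicate 2 and to 1429 and 1492 in C57BL/6N replicates 3 and 4, against at least 8912 in the other 5 corneas. Lens genes reached 386 and 207 and pigment cell genes 563 and 1232 RPM in BALB/cN replicates 1 and 4, against at most 121 and 107 in the others. The corneal epithelium itself was even, with 62284 to 74285 RPM for 12 genes including Krt12, the cornea-specific keratin. Krt12 took 2.41% ± 0.19 of the reads in BALB/cN and 2.30% ± 0.21 in C57BL/6N (SD, n = 4, exact permutation test, p = 0.457).

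Of the 10 members, 9 had at least 1 read and passed the filter on low values. At an adjusted p of 0.01 or less (limma, Benjamini-Hochberg over 25402 genes), Muc15 was higher in BALB/cN corneas, and Muc4, Muc20 and Msln were lower. Over all genes 5.74% passed this threshold, 2.83% higher and 2.91% lower in BALB/cN. At an adjusted p of 0.05 or less Muc1 and Muc5ac joined as higher in BALB/cN, against a background of 11.2%, but both missed this threshold with some corneas left out. In these 6 of 9 genes the strains did not overlap, as in 18.3% of all genes. With limma voom on the recovered reads Muc4, Muc20 and Muc15 passed the threshold of 0.01, as did 5.61% of all genes. No member was called among the 5 stroma-rich corneas alone or without the 2 BALB/cN corneas rich in lens and pigment reads. In each of these smaller comparisons 6 members had an unadjusted limma p under 0.05. Over all 25402 genes, 5910 had such a p in the stroma-rich corneas and 4268 without the lens- and pigment-rich ones.

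**Figure D1:**
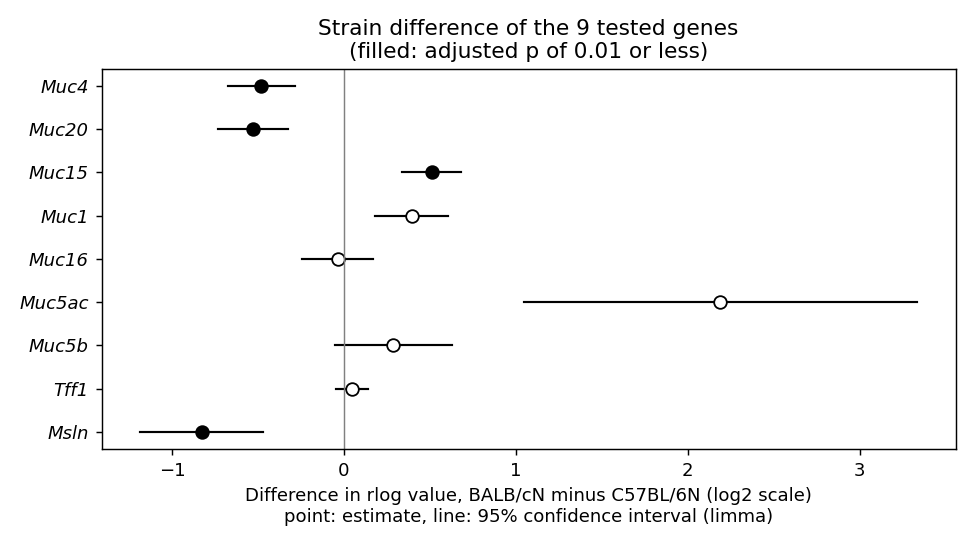
Strain difference of the 9 tested genes as BALB/cN minus C57BL/6N on the rlog scale (log2, x axis), with the limma estimate as a point and its 95% confidence interval as a line. Filled points passed an adjusted p of 0.01. Muc15 lies above 0 with 0.51, Muc4, Muc20 and Msln lie below it, and Muc5ac has the widest interval, from 1.05 to 3.33.

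Levels of the members spanned many orders of magnitude, as the plot of recovered reads by cornea shows. Per length, Muc4 led with 1501 ± 215 RPKM in BALB/cN and 2207 ± 175 RPKM in C57BL/6N (SD, n = 4; RPM divided by exon length in kilobases). It ranked 16 among protein-coding genes by RPKM and 3 among all genes by reads. Muc20 and Muc15 followed, and their ranges over the 8 corneas overlapped, with Muc20 ahead in 4 of 8 corneas. Muc1 came next with 6.06 to 12.6 RPKM. Each of these steps except Muc20 to Muc15 held in all 8 corneas without overlap. Muc5ac, Msln, Tff1, Muc5b and Muc16 stayed at 1.33 RPKM or less and neighbours among these 5 in the order overlapped. Muc5ac was below Muc1 in all 8 corneas, and Tff2 had no read.

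**Figure D2:**
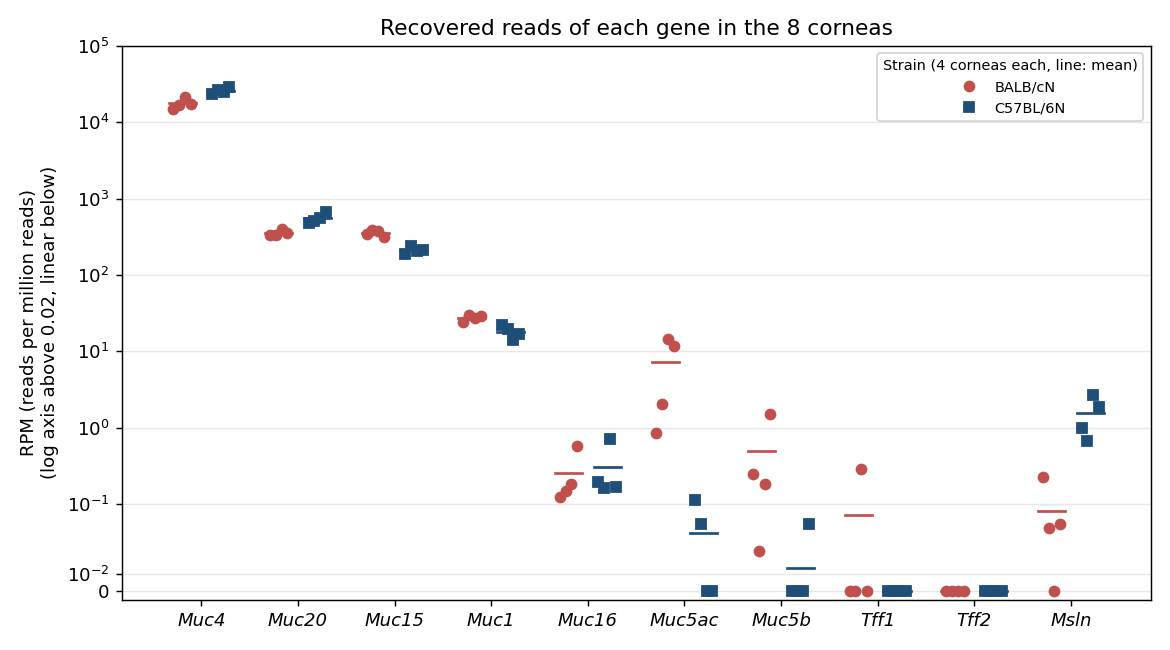
RPM (recovered reads per 1000000 reads, y axis, logarithmic above 0.02 and linear below) of the 10 genes in each cornea, with circles for BALB/cN, squares for C57BL/6N and a line at the mean of 4 corneas. Muc4 lies far above the others in all corneas, Muc5ac reaches 14.3 only in BALB/cN, and Tff2 lies at 0 throughout.

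Muc4, a membrane-bound mucin that can bind the receptor Erbb2, made up 1.51%, 1.69%, 2.11% and 1.74% of all reads in the BALB/cN corneas. In the C57BL/6N corneas its share was 2.38%, 2.63%, 2.51% and 2.86%. All C57BL/6N corneas were above all BALB/cN corneas, and the mean normalised read count was 1.54-fold higher in C57BL/6N. On the rlog scale the values were 19.33 ± 0.17 and 19.81 ± 0.11 (SD, n = 4), a difference of -0.48 (95% interval -0.68 to -0.29, adjusted p = 0.00631 from limma, exact permutation test p = 0.0286, the smallest p that 4 against 4 allow). This call was close to the threshold. It was lost without BALB/cN replicate 1, 2 or 4 or C57BL/6N replicate 2, 3 or 4, with adjusted p-values up to 0.0224, and quantile normalisation reduced the difference to -0.22 (adjusted p = 0.0414).

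Muc20, a smaller membrane-bound mucin, showed the same order. Its RPM values were 332, 337, 398 and 352 in BALB/cN and 474, 514, 558 and 659 in C57BL/6N, again without overlap. C57BL/6N corneas had 1.63-fold more, and the rlog difference was -0.53 (95% interval -0.73 to -0.32, adjusted p = 0.00486 from limma). The call was lost without BALB/cN replicate 1, 2 or 4 or C57BL/6N replicate 2 or 3, with adjusted p-values up to 0.0205. The lowest BALB/cN cornea for both Muc4 and Muc20 was replicate 1 and the highest was replicate 3, and the highest C57BL/6N cornea for both was replicate 4. After removal of the strain means, their rlog values correlated with r = 0.85 over the 8 corneas, which share the library and its depth, and the overlap of exons on opposite strands.

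Muc15, a membrane-bound mucin with a short extracellular part, went the other way. Its RPM values were 341, 391, 373 and 316 in BALB/cN and 189.6, 242, 203 and 214 in C57BL/6N. All BALB/cN corneas were above all C57BL/6N corneas, with a 1.60-fold higher mean normalised read count. The rlog difference was 0.51 (95% interval 0.34 to 0.68, adjusted p = 0.00215 from limma), and it kept its call with each cornea left out in turn, with adjusted p-values up to 0.00987. With each cornea centred on its median the difference was 0.44 and the call was lost (adjusted p = 0.0471). Muc15 shares 61 bp of exon with Ano3 on the opposite strand, and Ano3 itself differed by 0.08 (adjusted p = 0.773 from limma).

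The opposite order of Muc20 and Muc15 is also described as a ratio within each cornea, which no scaling of libraries can alter. Since neither gene overlapped between the strains, the direction of their ratio was fixed. Its permutation p was computed but carries no evidence, and the same holds for Muc4 to Muc15. BALB/cN corneas held 0.974, 0.863, 1.07 and 1.12 reads of Muc20 for each read of Muc15, and C57BL/6N corneas held 2.50, 2.13, 2.75 and 3.08. The mean ratio was 2.60-fold higher in C57BL/6N. Muc4 gave 49.9 ± 7.1 reads per Muc15 read in BALB/cN and 123 ± 10 in C57BL/6N (SD, n = 4). By contrast, the ratio of Muc4 to Muc20 was 49.6 ± 3.1 and 47.4 ± 3.8, a difference within the spread of the corneas (exact permutation test, p = 0.429). Muc4 reads counted for Muc20 through the exon overlap could enter this ratio, and their share was not tested. Against Krt12, Muc4 had 0.737 ± 0.121 reads per Krt12 read in BALB/cN and 1.13 ± 0.12 in C57BL/6N (exact permutation test, p = 0.0286). All members together took 1.84% ± 0.26 of the reads in BALB/cN and 2.67% ± 0.21 in C57BL/6N (SD, n = 4), and Muc4 alone supplied 95.9% and 97.1% of them. Adjusted over the 7 ratios and shares computed (Benjamini-Hochberg), the exact permutation p became 0.457 for Muc4 to Muc20 and 0.0400 for Muc4 to Krt12. These 7 include both ratios of fixed direction, which lowers the adjusted value for Muc4 to Krt12, so no support is drawn from it.

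**Figure D3:**
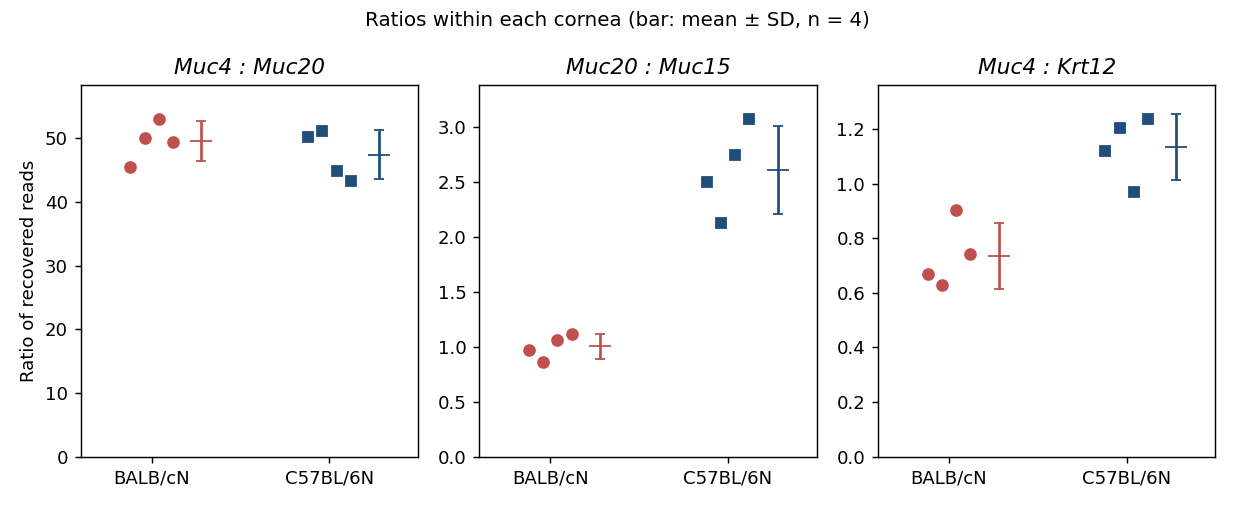
Ratios of recovered reads within each cornea (y axes from 0) for Muc4 to Muc20, Muc20 to Muc15 and Muc4 to Krt12, with circles for BALB/cN, squares for C57BL/6N and bars for mean ± SD (n = 4). The strains overlap for Muc4 to Muc20 and are apart in the other panels, with Muc20 to Muc15 at 0.863 to 1.12 in BALB/cN and 2.13 to 3.08 in C57BL/6N.

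Muc1, a membrane-bound mucin with a signalling tail, had 24.2, 29.6, 27.0 and 29.1 RPM in BALB/cN and 21.9, 19.3, 14.2 and 16.7 in C57BL/6N. The strains did not overlap and the mean was 1.46-fold higher in BALB/cN. With an rlog difference of 0.39 (95% interval 0.18 to 0.61) the adjusted p from limma was 0.0268, so Muc1 missed the threshold of 0.01. It also missed 0.05 without BALB/cN replicate 2, 3 or 4 or C57BL/6N replicate 4 (adjusted p up to 0.0782) and after median centring (0.125). Its lowest values came from the stroma-poor C57BL/6N replicates 3 and 4, while the stroma-poor BALB/cN replicate 2 had its highest.

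Muc16, the largest membrane-bound mucin of the ocular surface and the partner of mesothelin, was near the lower limit. It had 5, 6, 7 and 21 reads in BALB/cN and 7, 6, 21 and 6 reads in C57BL/6N corneas over 26350 bp of exon. Each strain held a single cornea with 21 reads. The rlog difference was -0.04 (95% interval -0.24 to 0.17, adjusted p = 0.851 from limma), so a difference was not detectable at this depth.

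Muc5ac, the gel-forming mucin of goblet cells, had 34, 84, 555 and 430 reads in BALB/cN and 4, 2, 0 and 0 reads in C57BL/6N corneas. Every BALB/cN cornea was above every C57BL/6N cornea, but the BALB/cN corneas themselves ranged from 0.844 to 14.3 RPM. Pooled over the corneas of a strain, the normalised read count was 155-fold higher in BALB/cN (95% counting interval 71.1 to 424), and between 102-fold and 343-fold higher with each cornea left out. The rlog values were 6.62 ± 1.26 and 4.43 ± 0.07 (SD, n = 4). Their difference of 2.19 (95% interval 1.05 to 3.33) gave an adjusted p of 0.0225 from limma, above the threshold, and a permutation p of 0.0286. Without BALB/cN replicate 1, the lowest of its strain, the difference was 2.66 and passed (adjusted p = 0.00534). Without BALB/cN replicate 3 or 4 or C57BL/6N replicate 2, 3 or 4 it missed even an adjusted p of 0.05 (up to 0.0621), as it did in a robust limma fit (0.0769). With limma voom on the recovered reads the log2 fold change was 6.62 with an adjusted p of 0.243. Of the 2 BALB/cN corneas with lens and pigment reads, replicate 1 had the fewest Muc5ac reads of its strain and replicate 4 the second most.

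Muc5b, its gel-forming neighbour, had 10, 1, 7 and 55 reads in BALB/cN and 0, 0, 0 and 2 reads in C57BL/6N corneas. BALB/cN replicate 4 held most of them, and replicate 2 with 1 read fell below the C57BL/6N cornea with 2. The pooled ratio was 30.8 (95% counting interval 8.23 to 259), and 9.92 (2.37 to 88.2) without BALB/cN replicate 4. The rlog difference of 0.29 (95% interval -0.05 to 0.63) did not pass (adjusted p = 0.289 from limma, exact permutation test p = 0.0571). The order of the BALB/cN corneas differed between both genes, since replicate 3 led for Muc5ac and replicate 4 for Muc5b.

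Tff1, which gastric surface mucous cells secrete together with Muc5ac, had 11 reads in BALB/cN replicate 3, the cornea with the most Muc5ac, and none in the other 7. The rlog difference was 0.05 (95% interval -0.04 to 0.14, adjusted p = 0.520 from limma). Tff1 shares 221 bp of exon with the antisense gene Gm15318. Tff2 had no read in any cornea and was not tested, which allows up to 3 reads in each.

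Msln had 9, 2, 0 and 2 reads in BALB/cN and 35, 25, 79 and 68 reads in C57BL/6N corneas. The strains did not overlap, and the pooled ratio was 18.9-fold in favour of C57BL/6N (95% counting interval 10.8 to 36.0). BALB/cN replicate 1 held most of the BALB/cN reads, and without it the ratio was 45.1 (17.3 to 167). The rlog difference was -0.83 (95% interval -1.18 to -0.47, adjusted p = 0.00858 from limma), while limma voom on the recovered reads gave a log2 fold change of -4.51 with an adjusted p of 0.0174. Leaving out any BALB/cN cornea or C57BL/6N replicate 1, 3 or 4 ended the call, with adjusted p-values up to 0.0312. The study's own DESeq2 test of the original counts listed Msln as lower in BALB/cN at the threshold of 0.01. It used the same corneas and is no independent support. The stroma-poor C57BL/6N replicates 3 and 4 had the most Msln reads, and among the stroma-rich corneas alone the difference was -0.53 (adjusted p = 0.0324). With the level of stromal genes as a covariate in limma the difference was -0.73 and kept its call (adjusted p = 0.00205). This covariate also raised the calls over all genes from 1458 to 2374.

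Genes around the members were described by lists of enzymes, partners and cell type markers. Their reads are given as recovered and are not scaled to library size. Of 168 listed genes that were tested and are not members, 20 passed (11.9%), 4 higher and 16 lower in BALB/cN. All counts of calls below are to be read against the 5.74% of all genes, and the median difference of all genes was 0.01. An unadjusted limma p under 0.05, given below for some lists and neighbours, was held by 6009 of the 25402 genes.

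Enzymes of mucin O-glycosylation gave 5 calls among 30 tested genes, with 1 higher and 4 lower in BALB/cN corneas and a median of -0.01. St6galnac1, which caps the first sugar of the chain with sialic acid, had 4077, 4381, 3849 and 3229 reads in BALB/cN and 10066, 10622, 12308 and 12448 in C57BL/6N, an rlog difference of -1.36 (adjusted p = 2.68e-05 from limma). B3gnt3, which extends the core 1 chain, had 332, 373, 302 and 223 against 909, 939, 904 and 1194 reads, a difference of -1.36 as well (adjusted p = 3.16e-05 from limma). In both genes every C57BL/6N cornea was above every BALB/cN cornea. C1galt1, the enzyme that makes core 1 from the first sugar, had 67 to 135 reads in BALB/cN and 208 to 338 in C57BL/6N, with a difference of -1.01 (adjusted p = 0.000953 from limma). Its chaperone C1galt1c1 differed by 0.02 (adjusted p = 0.935). Galnt3, which adds the first sugar and is named here after its value was seen, differed by -0.62 (adjusted p = 0.000698 from limma). St3gal4, a sialyltransferase, was the single enzyme called as higher in BALB/cN with 112 to 193 against 32 to 60 reads and a difference of 0.68 (adjusted p = 0.00591 from limma). The St3gal4 call was lost when any cornea other than C57BL/6N replicate 1 was left out (adjusted p up to 0.0224), whereas St6galnac1, B3gnt3 and C1galt1 kept theirs with each cornea left out. The remaining 25 enzymes did not pass, among them the highly expressed Galnt18 with a difference of -0.05 (adjusted p = 0.726).

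Partners and sheddases of membrane-bound mucins gave 3 calls among 14 genes, all lower in BALB/cN, with a median of -0.22. Adam17, a protease that sheds the outer part of membrane mucins, differed by -0.47 (adjusted p = 0.00210 from limma), with 2346 to 3235 reads in BALB/cN and 3037 to 3991 in C57BL/6N. On the rlog scale its strains did not overlap. Lgals3, the galectin that links mucins of the glycocalyx, differed by -0.44 (adjusted p = 0.00172 from limma), and the metalloprotease Mmp14 by -0.25 (adjusted p = 0.00837 from limma). The Mmp14 call was lost with any single cornea left out (adjusted p up to 0.0286). No call in this list was made without the lens- and pigment-rich BALB/cN corneas. Erbb2, the receptor bound by Muc4, had a difference of -0.17 (adjusted p = 0.352), and Ezr, which ties membrane mucins to actin, one of -0.24 (adjusted p = 0.0410).

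Among the other mucins and mucin-like genes, 1 of 9 tested passed. This was Cd164, a membrane sialomucin, with 21010.0 to 25948 reads in BALB/cN and 12989 to 17891 in C57BL/6N and a difference of 0.29 (adjusted p = 0.00418 from limma). Its call was lost without BALB/cN replicate 1 or 3 or C57BL/6N replicate 1, 3 or 4 (adjusted p up to 0.0171) and after median centring (adjusted p = 0.212). Muc2, the gel-forming mucin next to Muc5ac, had 33 to 56 reads in BALB/cN and 31 to 45 in C57BL/6N, with a difference of -0.02 (adjusted p = 0.905). Tff3, the trefoil factor of goblet cells, had no read in any cornea. Among regulators of mucin genes 1 of 13 passed. Sox9 had 4590.0 to 4943 reads in BALB/cN and 1817 to 2323 in C57BL/6N (difference 0.69, adjusted p = 3.64e-05 from limma). Klf4 differed by -0.25 (adjusted p = 0.0180) and Spdef, the goblet cell regulator, by -0.06 (adjusted p = 0.610). None of 12 tested genes of the glycocalyx and tear film and none of 6 of lacrimal and meibomian glands passed in limma or in limma voom, with 4 and 1 of them at an unadjusted limma p under 0.05.

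Since Muc5ac marks goblet cells, the markers of these cells were set beside it. Tff3, Bpifa1 and Ern2 were at 0 in all corneas. Spdef had 5 to 17 reads in BALB/cN and 6 to 14 in C57BL/6N, Agr2 had 7 to 14 and 3 to 28, Clca1 had 0 to 4 and 2 to 5, and Foxa3 had 0 to 6 and 0 to 2. Of 8 goblet cell genes tested, 2 passed and both were lower in BALB/cN, Krt7 by -0.90 (adjusted p = 0.00424 from limma) and Fcgbp by -0.66 (adjusted p = 8.55e-05 from limma). The goblet cell list summed to 68.2 to 79.1 RPM in BALB/cN and 114 to 128 in C57BL/6N, thus opposite to Muc5ac. Most of this sum was Fcgbp, with 1404 to 1699 reads in BALB/cN and 2167 to 2650 in C57BL/6N, and Krt7, which also stands in the conjunctival list, with 405 to 518 and 658 to 1375. The median difference of the 8 genes was -0.05, and Galnt12 had the highest with 0.29 (adjusted p = 0.0854 from limma). Krt7 lost its call without any BALB/cN cornea or C57BL/6N replicate 1 or 3 (adjusted p up to 0.0175). Their part in the Muc5ac values was not tested.

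Muc4 and Muc5ac stand in the list of the conjunctival epithelium. Without these members 6 of 10 genes passed, each of them lower in BALB/cN, and the median of the 10 was -0.94. Krt13, a keratin of the conjunctiva, had 1873, 1816, 1344 and 1856 reads in BALB/cN and 16520.0, 15644, 9858 and 17863 in C57BL/6N (difference -2.51, adjusted p = 6.95e-07 from limma). S100a9 had 2 to 21 and 108 to 157 reads (-1.54, adjusted p = 3.95e-05), Sprr1a had 344 to 456 and 783 to 1909 reads (-1.38, adjusted p = 0.000368), and Krt4 had 0 to 24 and 63 to 116 reads (-1.17, adjusted p = 0.000879, all from limma). The 4 genes that did not pass went no single way. Krt8, a keratin of simple epithelia, had 22 to 45 reads in BALB/cN and 3 to 11 in C57BL/6N without overlap (0.40, adjusted p = 0.0111 from limma), while Krt6a, Ceacam1 and S100a8 had differences of -0.04, 0.00 and 0.02 (adjusted p = 0.698, 0.988 and 0.875 from limma). These genes are named here after their values were seen. S100a9 and Sprr1a are better known from inflamed and cornifying epithelia. The 10 genes summed to 1462 to 1777 RPM in BALB/cN and 1799.9 to 2171 in C57BL/6N. Most of this sum was Krt6a, with 47059 to 53011 reads in BALB/cN and 35007 to 48555 in C57BL/6N, and Ceacam1, with 8646 to 13360 and 6148 to 10597. Normalised for library size, the means in BALB/cN and C57BL/6N were 45700 and 47510 for Krt6a and 9466 and 9312 for Ceacam1. Neither of these passed. Their part in the difference of Muc4 was not tested. No separate conjunctival sample was analysed here.

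Markers of mesothelium, the classical source of Msln, ranged from absent to abundant and were mixed in direction. Calb2 was at 0, Wt1 had 1 to 28 reads in BALB/cN and 0 to 2 in C57BL/6N, and 1 of 7 genes passed, Krt19 with -0.97 (adjusted p = 0.000338 from limma), a keratin that also stands in the conjunctival list. Upk3b had a difference of -1.10 and did not pass (adjusted p = 0.0165). The abundant Upk1b, with 30683 to 37068 reads in BALB/cN and 32074 to 43171 in C57BL/6N, had -0.30 (adjusted p = 0.0173 from limma). Bnc1, Cav1 and Gpm6a went the other way with 0.27, 0.29 and 0.30 (adjusted p = 0.0746, 0.323 and 0.734 from limma). The median of the 7 genes was 0.16. In the corneal epithelium 1 of 12 genes passed, Dsg1a (-0.68, adjusted p = 0.00479), among stromal keratocytes 1 of 12, Aldh1a3 (0.46, adjusted p = 0.00234), and in the corneal endothelium 1 of 8, Tjp1 (-0.31, adjusted p = 0.00148, all from limma). The Dsg1a call was lost without BALB/cN replicate 1, 3 or 4 or C57BL/6N replicate 3 or 4 (adjusted p up to 0.0205). Aldh1a3 did not fall in the stroma-poor corneas. Its rlog value was 12.74 in BALB/cN replicate 2, within 12.55 to 12.83 for its strain. In C57BL/6N replicates 3 and 4 it was 12.18 and 12.3, against 12.3 and 12.15 in replicates 1 and 2. Lens, pigment cells, macrophages and cornified epidermis had no call in limma or limma voom among 13, 7, 10 and 5 genes, of which 1, 0, 3 and 3 had an unadjusted limma p under 0.05. Their median differences were 0.82, 0.78, 0.19 and -0.30.

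**Figure D4:**
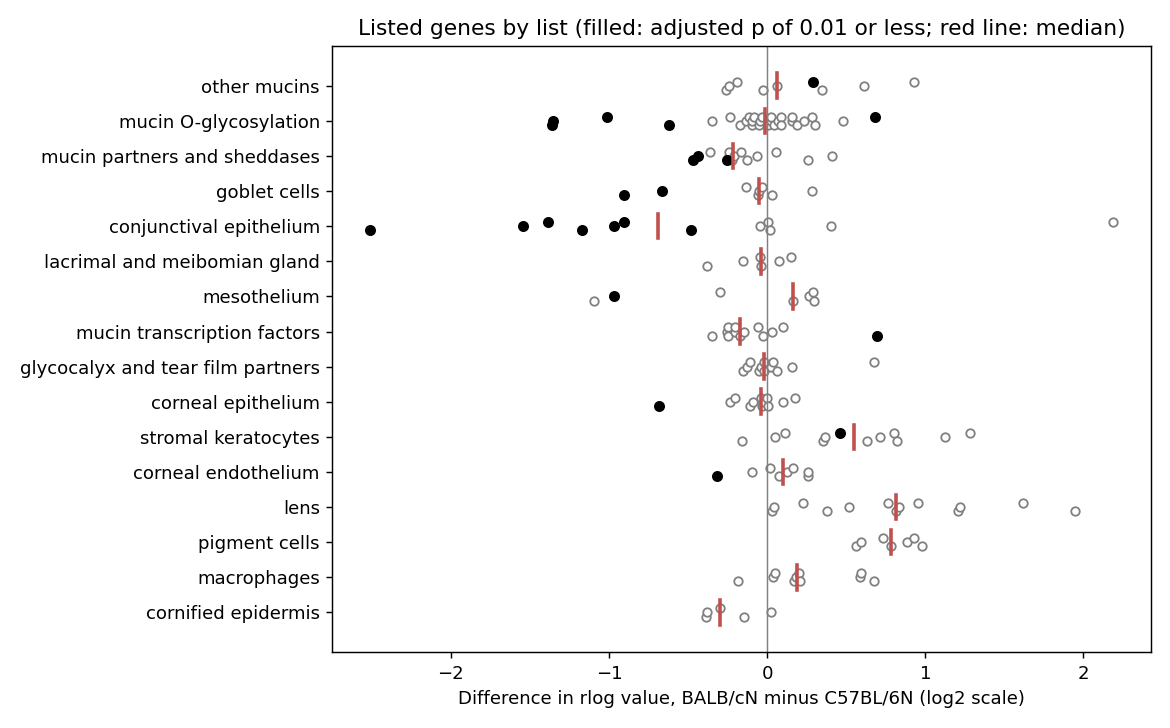
Difference in rlog value (BALB/cN minus C57BL/6N, log2 scale, x axis) of each tested gene by list, with filled points for an adjusted p of 0.01 or less and a red line at the list's median. The conjunctival list, which includes Muc4 and Muc5ac, has 7 filled points, all below 0, and its open point at 2.19 is Muc5ac.

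The nearest tested protein-coding genes on either side were compared for most members. Beside Muc4 and Muc20, 1 of 6 neighbours passed, Fyttd1 with -0.42 (adjusted p = 0.00288), and Rubcn next to it had -0.30 (adjusted p = 0.0221). The Fyttd1 call was lost without BALB/cN replicate 1 or 4 or C57BL/6N replicate 3 or 4 (adjusted p up to 0.0121). Around Muc5ac and Muc5b none of 6 passed in limma or limma voom, with differences from -0.23 to -0.01 and 2 of 6 at an unadjusted p under 0.05. Around Msln none of 6 passed in either, with 1 at an unadjusted p under 0.05, and its paralogue Mslnl differed by -0.01 (adjusted p = 0.901). Beside the trefoil factors 3 of 6 passed, all higher in BALB/cN. These were Dnah8 with 1.94 (adjusted p = 0.000809), Glo1 with 0.78 (adjusted p = 0.000108) and Tmprss3 with 0.76 (adjusted p = 0.00148). Extra copies of Glo1 are known in some strains and were not tested here. Around Muc16 and Muc15 none of 6 passed in limma or limma voom, and none had an unadjusted p under 0.05. All of these p-values are from limma.

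After removal of the strain means, the genes whose rlog values followed each member most closely over the 8 corneas were searched among 16014 protein-coding genes. They were Plekhs1 and Lpar5 for Muc4 (r = 0.975 and 0.966), Zfp36l1 and Cep83 for Muc20 (0.987 and 0.983), Vnn3 and Pif1 for Muc15 (0.978 and 0.975), Cisd3 and Nuf2 for Muc1 (0.988 and 0.982), Arhgef39 and Hbegf for Muc5ac (0.983 and 0.977) and Ppil6 and Nbr1 for Msln (0.992 and 0.985). For Muc5b these were Zfp641 and Lipc (0.993 and 0.992), for Muc16 Il1rapl2 and Stac3 (0.992 and 0.983), and for Tff1 Crym and Sprr2f (both r = 1 after rounding). The best of so many genes over 8 corneas is high by selection, and for Muc5b, Muc16 and Tff1 it rests on 1 or 2 corneas. Among the members themselves, Msln and Muc1 had r = -0.82 and Muc4 and Muc20 the highest value.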

How the data were processed

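Naive corneas of male BALB/cN (n = 4) and C57BL/6N (n = 4) mice were sequenced as strand-specific total RNA. The authors removed adapters and reads of ribosomal and transfer RNA, aligned with Tophat2 2.1.1 to a pseudo-genome per strain, mapped the alignments back to GRCm38, counted with HTSeq 0.7.1 on Ensembl 94 and deposited DESeq2 1.30 rlog values, which are log2 values normalised for library size. Different genomes for both strains can shift the counts of genes rich in variants or repeats. All 8 columns were assigned by label, and 0 columns were unused.

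Differences between strains were estimated with limma 3.58.1 under R 4.3.3 (lmFit, eBayes with trend) for the 25402 genes whose rlog values averaged 0 or more, with Benjamini-Hochberg adjustment and an adjusted p of 0.01 or less as threshold. Single values were compared by two-sided exact permutation tests (scipy 1.17.1). Read counts were recovered from the rlog values alone, with constants fitted to genes with 1 to 3 reads in a single cornea and refined on every other gene. On the genes left out, 98.0% of values lay within 0.1 of a whole number at means under 3 reads, 94.6% at 10 to 100, 89.1% at 100 to 1000, 42.1% at 1000 to 5000 and 19.5% above 5000 (20% by chance), so counts above 1000 reads are not exact to the read. Recovered counts gave back all 8 rlog values within 0.01 in 99.38% of genes. Procedures were tested on simulated data. Lengths and positions came from GENCODE M21 (GRCm38), which held 54495 of the 54532 gene IDs.

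Members and lists (16 lists) were chosen with earlier results of these data known. Genes to be named were all members, up to 4 called genes per list with the largest difference, among the 3 closest tested coding genes up- and downstream mainly those that passed, and the 2 genes most correlated with each member, except for a result that is not reported here. Alternatives were a fit without variance trend, a robust fit, a fit of unfiltered genes, a minimum mean of log2(10), median centring, quantile normalisation, an empirical null, a replicate block, each cornea left out, an adjusted p of 0.05, voom on recovered counts and a stromal covariate. Subsets by tissue makeup were added after seeing the data. Figures were drawn with matplotlib 3.10.9 (Python 3.11.15, numpy 2.4.6, pandas 2.3.3).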

Additional observations from a re-analysis of the deposited data

Results flagged for a closer look

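In 140 groups of 4 corneas (70 genes in both strains), 8 had a cornea far from the others by Dixon's ratio of its gap to the whole range of the group. About 7 are expected by chance. Tff1 in BALB/cN replicate 3 (ratio 0.998, 11 reads against 0), Muc16 in BALB/cN replicate 4 (0.833, 21 reads) and in C57BL/6N replicate 3 (0.933, 21 reads), and Muc5b in C57BL/6N replicate 4 (0.890, 2 reads) were above the others of their strain, each on few reads. Krt4 in BALB/cN replicate 4 (0.897, 24 reads), St3gal4 in BALB/cN replicate 4 (0.832, 193 reads) and Adam17 in BALB/cN replicate 2 (0.831, 3235 reads) were above the others. Fibin, a neighbour of Muc15, was below the others in the stroma-poor BALB/cN replicate 2 (0.973, 326 reads).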

How the results depend on the processing

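Of 186 comparisons of a member's difference with its value under an alternative, 136 kept direction and side of the threshold, 43 lost the call, 3 gained one and 4 turned direction. The numbers of members called (4, with 1 higher and 3 lower in BALB/cN) became 2 (1 lower) without a variance trend, 1 (0 higher, 1 lower) after median centring, 2 (1 lower) after quantile normalisation, 0 (0 and 0) with an empirical null of standard deviation 1.67, where 4 members and 1730 genes had an unadjusted limma p under 0.05, and 0 in both subsets by tissue makeup. At an adjusted p of 0.05 there were 3 higher. With each cornea left out 1 to 3 were called, 1 to 2 higher and 0 to 2 lower. Over all genes, 1458 calls (718 higher, 740 lower) became 958 (413 higher) after median centring, 0 with the empirical null, 2374 (1193 and 1181) with the stromal covariate, 2842 (1413 and 1429) at an adjusted p of 0.05, 852 (411 and 441) in stroma-rich corneas, 447 (219 and 228) without the lens-rich corneas, and 953 to 1163 (468 to 608 lower) with each cornea left out. Calls of listed genes went from 20 to 13, 0, 36 and 9 under median centring, empirical null, stromal covariate and without the lens-rich corneas.

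Muc4 (-0.48) lost its call without a variance trend (-0.48, adjusted p = 0.0138), with the higher filter (-0.48, 0.0361), after median centring (-0.55, 0.0176) and quantile normalisation (-0.22, 0.0414), with the empirical null (-0.48, 0.625), in stroma-rich corneas (-0.42, 0.0879) and without the lens-rich ones (-0.38, 0.0861), and lay at -0.56 to -0.42 with a cornea left out. Muc20 (-0.53) lost it after median centring (-0.60, 0.0161), with the empirical null (-0.53, 0.600) and in both subsets (-0.38, 0.0362 and -0.47, 0.0940), and lay at -0.59 to -0.45 with a cornea left out. Muc15 lost it after median centring (0.44, 0.0471), with the empirical null (0.51, 0.527) and in both subsets (0.48, 0.0353 and 0.61, 0.0101). Msln lost it without a variance trend (-0.83, 0.0130), without a filter (-0.83, 0.0125), after quantile normalisation (-0.87, 0.0109), with the empirical null (-0.83, 0.661), with voom (-4.51, 0.0174) and in both subsets (-0.53, 0.0324 and -0.88, 0.0840), and lay at -0.95 to -0.69 with a cornea left out. Muc1 (0.39) and Muc5ac (2.19) passed at an adjusted p of 0.05, and Muc5ac lay at 1.79 to 2.66 with a cornea left out. All p-values are adjusted, from limma. Tff1 turned to -0.025 after median centring and to -0.00051 without BALB/cN replicate 3, with a range of -0.00051 to 0.066, and Muc16 to 0.060 in stroma-rich corneas and to 0.040 without C57BL/6N replicate 3, with a range of -0.099 to 0.040. The cause was not tested. Median centring moved the median difference of all genes from 0.01 to -0.07.

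Of 1275 comparisons for other named genes, 1090 kept direction and side, and 61 turned, all in genes that were not called. After median centring Narfl turned to -0.028, Nop10 to -0.070, Olfr77 to -0.069, Slc37a1 to -0.064, Tfrc to -0.057 and Trim46 to -0.034. After quantile normalisation Narfl turned to -0.014, Nop10 to -0.045, Tfrc to -0.041 and Trim46 to -0.051. With the stromal covariate Ccdc78 turned to 0.0063, Nop10 to -0.11, Olfr77 to -0.0024, Rpusd1 to 0.0070, Tfrc to -0.089 and Trim46 to -0.17. With voom Brsk2 turned to 0.98, Ccdc78 to 0.044, Nop10 to -0.0097 and Olfr77 to -0.34. In stroma-rich corneas Muc2 turned to 0.055, Narfl to -0.047, Nop10 to -0.17, Tfrc to -0.25 and Trim46 to -0.39. Without the lens-rich corneas Ccdc78 turned to 0.017, Chordc1 to 0.0030, Naalad2 to -0.061, Nop10 to -0.052, Rpusd1 to 0.086 and Trim46 to -0.059. With a cornea left out the ranges spanned 0 for Bbox1 (-0.063 to 0.0059), Brsk2 (-0.056 to 0.084), Ccdc78 (-0.016 to 0.017), Mslnl (-0.031 to 0.018), Muc2 (-0.073 to 0.018), Nop10 (-0.092 to 0.16), Olfr77 (-0.0069 to 0.015), Rpusd1 (-0.069 to 0.031), Slc37a1 (-0.054 to 0.064), Tfrc (-0.13 to 0.13) and Trim46 (-0.14 to 0.25).

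Replicate numbers are shared between the strains. The deviations of same-numbered corneas from their strain means correlated with 0.305, -0.53, -0.203 and -0.454. These deviations also carry the uneven tissue makeup of the corneas, so they cannot decide whether the numbers pair the corneas. With the replicate number as a block 554 genes were called (274 higher, 280 lower), 1 member (0 lower) and 9 listed genes. Under this block Muc4 (-0.48, adjusted p = 0.0178), Muc20 (-0.53, 0.0131) and Msln (-0.83, 0.0417) lost their calls in limma.

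Depth limited Muc16, Muc5b, Tff1, Tff2 and the low strain of Muc5ac and Msln, where single reads decide a ratio.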
